A study of Mus musculus with 18 samples.

Results

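Adipogenic differentiation was compared between 2 genotypes of cultured mouse fat precursor cells, across all genes. All 12 culture libraries of the series entered, of 18 libraries in all, and the other 6, from inguinal white adipose tissue, served only to give the level of Nfia. The cells were stromal-vascular cells, the non-fat cells of the groin fat pad, of 2 labelled genotypes, wild type (WT) and NFIA-Tg, a transgene for the transcription factor NFIA. Each genotype was sampled before induction (day 0) and after it (day 7), with 3 libraries in each of the 4 groups, and the labels call the cells of both days adipocytes. Induction lasted 48 hours, with 0.5 mM isobutylmethylxanthine, 1 µM dexamethasone and 125 nM indomethacin beside 850 nM insulin, 1 µM rosiglitazone and 1 nM T3, and the last 3 agents were kept on afterwards. Both genotypes got the same agents, so day 7 cells of both had been given rosiglitazone, a PPARγ agonist, and T3, a thyroid hormone. Not given in the sources used here are the transgene's promoter, the age and sex of the mice, and whether the cells were immortalised or the replicates separate cultures. The p-values therefore measure only the spread between these libraries, which may be technical.

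The measure is the genotype by differentiation interaction, the change from day 0 to day 7 in NFIA-Tg minus that in WT, on the log2(FPKM + 1) scale. FPKM counts fragments per kilobase of a gene's transcript and is scaled to library size, and levels below are in FPKM. A positive or higher interaction means that the gene rose more, or fell less, in NFIA-Tg than in WT, and a negative or lower one the opposite. A gene was called at a Benjamini-Hochberg adjusted p under 0.05 in limma, over all 12553 genes tested. Genes tested had at least 1 FPKM in at least 3 libraries. Of these, 750 passed that filter on low values only through 1 group, so their interactions are descriptions. Interactions are given ± SE, and the pseudocount of 1 makes them understate the change of genes with low values.

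Fat precursor cells become adipocytes through a cascade in which C/EBP factors and PPARγ, the nuclear receptor encoded by Pparg, switch on genes of lipid storage. Brown and beige fat cells share this cascade and add a thermogenic programme, whose end product, UCP1, lets mitochondria burn fuel as heat. NFIA belongs to the nuclear factor I family, whose members bind DNA as dimers at a palindrome of TTGGC half-sites, and in mice it is known as an activator of brown fat genes. As precursors differentiate they normally lose matrix, contractile and Wnt pathway genes of the fibroblast state.

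Nfia itself goes against the genotype label at day 7. In WT it stood at 6.42, 6.30 and 6.51 FPKM at day 0 and at 12.5, 13.0 and 12.01 FPKM at day 7. In the libraries labelled NFIA-Tg it stood at 11.3, 12.5 and 11.9 FPKM at day 0 and at 6.44, 7.32 and 7.20 FPKM at day 7. The 3 labelled transgenic libraries lay above the 3 WT ones at day 0 and below them at day 7, with no overlap on either day (log2 interaction −1.56 ± 0.07, adjusted p = 2.27e-09). In fat tissue of the same series Nfia stood at 3.73, 4.19 and 3.94 FPKM in WT and at 166, 99.6 and 157 FPKM in NFIA-Tg, a gap seen at neither day of the cultures. The name NFIA-Tg below stands for the library label, and directions are those of the labels.

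Other members of the family moved with Nfia or apart from it. Nfix fell in both genotypes and further in NFIA-Tg, from 75.2 to 31.5 FPKM in WT and from 80.6 to 9.36 FPKM in NFIA-Tg (log2 interaction −1.75 ± 0.06, adjusted p = 1.21e-10). Nfic had no called change in WT and fell in NFIA-Tg, from 34.4 ± 0.889 to 15.9 ± 0.420 FPKM (log2 interaction −1.04 ± 0.06, adjusted p = 8.9e-09). Nfib rose in both, from 0.379 to 7.28 FPKM in WT and from 1.51 to 15.5 FPKM in NFIA-Tg, and had no called interaction (0.12, adjusted p = 0.423). With a pseudocount of 0.1 it was called lower (−0.68, adjusted p = 0.00292) and on a square-root scale higher (0.62, adjusted p = 0.00609), so no direction can be given for it.

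Some genes kept the genotypes apart in the same direction on both days. Hoxb9, a homeobox gene that marks body position, averaged 26.9 FPKM in WT and 3.03 FPKM in NFIA-Tg at day 0, and 12.1 and 0.512 FPKM at day 7. Cspg4, a pericyte surface proteoglycan, averaged 1.20 against 0.0399 FPKM at day 0 and 1.84 against 0.0522 FPKM at day 7. Both were chosen after their values were seen. The Y-linked genes Ddx3y, Kdm5d, Uty and Eif2s3y were expressed in all 12 libraries, and summed to 56.8 to 58.8 FPKM in WT and 53.5 to 57.8 FPKM in NFIA-Tg at day 0 and to 86.7 to 93.8 and 99.1 to 115 FPKM at day 7. Xist, the X-inactivation RNA, was at 1.09 FPKM in NFIA-Tg day 0 replicate 3 and at most 0.0487 FPKM in the other 11, and Tsix was at 0 in all. Without that replicate, 8493 of the 8913 called interactions that could still be tested were called with the same sign. Libraries held 16772594 to 28625625 reads. The ribosomal RNA entry Rn45s took 0.0446 to 0.107% of reads in WT and 0.049 to 0.0614% in NFIA-Tg at day 0, and 0.0304 to 0.756% in WT and 0.438 to 2.1% in NFIA-Tg at day 7, and its part in the results was not tested.

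The promoters of 4 genes with large interactions are printed here because these genes have the 2 largest positive interactions (Ucp1 and Mt2) and the 2 largest negative ones (Adh1 and Sned1) after Clec3b, which is named only. Each covers 250 bases before to 50 after the start site in RefSeq (build GRCm38.p6, plus strand): Ucp1 at chr8:83290098-83290397, Mt2 at chr8:94172368-94172667, Adh1 at chr3:138277335-138277634 and Sned1 at chr1:93235647-93235946. Capitals in Ucp1 mark the nuclear factor I half-site TTGGC on either strand (here in its reverse complement), and in Mt2 the pattern TGCNCNC on either strand. That pattern is wider than the metal response core, the site through which zinc switches on metallothionein genes. The core takes only A or G at its 4th base, so not all capitals in Mt2 are such cores. Adh1 and Sned1 hold no TTGGC on either strand and have no capitals.
Ucp1: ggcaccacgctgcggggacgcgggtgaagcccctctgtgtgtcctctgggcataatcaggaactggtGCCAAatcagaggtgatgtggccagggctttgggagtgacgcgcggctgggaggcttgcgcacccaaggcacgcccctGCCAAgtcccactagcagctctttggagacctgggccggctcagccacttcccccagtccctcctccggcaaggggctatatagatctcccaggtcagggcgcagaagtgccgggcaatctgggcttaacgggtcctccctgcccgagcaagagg
Mt2: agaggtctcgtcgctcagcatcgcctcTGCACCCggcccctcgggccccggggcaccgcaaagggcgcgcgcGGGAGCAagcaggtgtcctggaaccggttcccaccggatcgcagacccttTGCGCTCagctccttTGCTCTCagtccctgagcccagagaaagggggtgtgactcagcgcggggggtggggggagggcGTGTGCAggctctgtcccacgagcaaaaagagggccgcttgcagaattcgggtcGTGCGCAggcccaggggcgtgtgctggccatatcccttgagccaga
Adh1: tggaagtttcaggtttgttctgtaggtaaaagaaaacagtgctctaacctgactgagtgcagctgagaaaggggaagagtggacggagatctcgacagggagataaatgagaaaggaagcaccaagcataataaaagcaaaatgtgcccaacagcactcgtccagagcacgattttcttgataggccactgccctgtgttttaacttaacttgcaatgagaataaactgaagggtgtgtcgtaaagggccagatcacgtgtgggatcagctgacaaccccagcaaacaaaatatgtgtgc
Sned1: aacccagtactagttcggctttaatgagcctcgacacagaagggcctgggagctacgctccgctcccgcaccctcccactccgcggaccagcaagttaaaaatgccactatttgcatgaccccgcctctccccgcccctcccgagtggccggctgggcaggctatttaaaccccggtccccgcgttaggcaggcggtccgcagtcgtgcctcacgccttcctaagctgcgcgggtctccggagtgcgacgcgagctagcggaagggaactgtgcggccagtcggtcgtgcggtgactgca
Across the 9629 tested genes with a promoter entry, 50.8% held a TTGGC, against 50.4% of 611 genes with a higher and 50.2% of 1087 genes with a lower interaction of at least 2-fold. The half-site also lies inside the full palindrome, which was found in 4 of all 9629 promoters. The PPAR half-site AGGTCA was in 11.7% of all promoters, in 14.9% of those with a higher and in 9.84% of those with a lower interaction. By list, TTGGC was in 22 of 30 promoters of the stress response list described below (73.3%), 11 of 20 of thermogenic genes (55%), 34 of 61 of oxidative phosphorylation genes (55.7%) and 10 of 20 of glycolysis genes. AGGTCA was in 6 of 20 promoters of thermogenic genes (30%), 14 of 61 of oxidative phosphorylation genes (23%) and 6 of 30 of the stress response list (20%). It was in 1 of 7 promoters of metallothionein and zinc genes (14.3%), 2 of 20 of glycolysis genes (10%) and 2 of 25 of matrix genes other than collagens (8%). For the C/EBP site TTGCGCAA the shares were 0.28%, 0.164% and 0.644%, and for the interferon core GAAANNGAA 7.13%, 7.36% and 6.62%. The pattern TGCNCNC is short and wider than the metal response core, and was in 60.5% of all promoters, with 6 copies in Mt2. The C/EBP-ATF core TGATGNAA was in 2.27% of all promoters and in 7 of 30 promoters of the stress response list (23.3%). These last 2 motifs were added after the values were seen. A match is a description of the letters and not a binding site.

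The 2 genotypes answered the same induction differently in most genes. Of 12553 genes, 9051 (72.1%) had a called interaction, 3701 higher (29.5%) and 5350 lower (42.6%). At least 2-fold interactions were called in 830 genes in the higher direction (6.61%) and in 1535 in the lower (12.2%). The median interaction of all genes was −0.11, against which the medians of gene lists below can be read. Counts of list members below can likewise be read against the shares given here. Differentiation alone was called in 10246 genes in WT (81.6%) and in 10950 in NFIA-Tg (87.2%). Genotype was called in 7911 genes at day 0 (63%), 28.1% of all genes being higher in NFIA-Tg and 34.9% lower, and in 10155 at day 7 (80.9%), 29.8% higher and 51.1% lower. With quantile normalization, which moved the median of all genes to 0.03, 52.3% of called interactions were higher, against 40.9% as deposited, so the balance of the 2 directions depends on the scaling.

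Most interactions were differences of size. In 4327 of the 9051 genes (47.8%), differentiation moved the gene the same way in both genotypes and further in NFIA-Tg, 1952 of them upward and 2375 downward. In 1394 (15.4%) it moved the same way and less far in NFIA-Tg. In 1122 (12.4%) it was called in opposite directions, 465 with a higher and 657 with a lower interaction. A further 1409 (15.6%) were called in NFIA-Tg and not in WT, 759 (8.39%) in WT and not in NFIA-Tg, and 40 (0.442%) in neither. These last classes rest on a threshold in one genotype, and the interaction itself is the test of the difference.

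**Figure D1:**
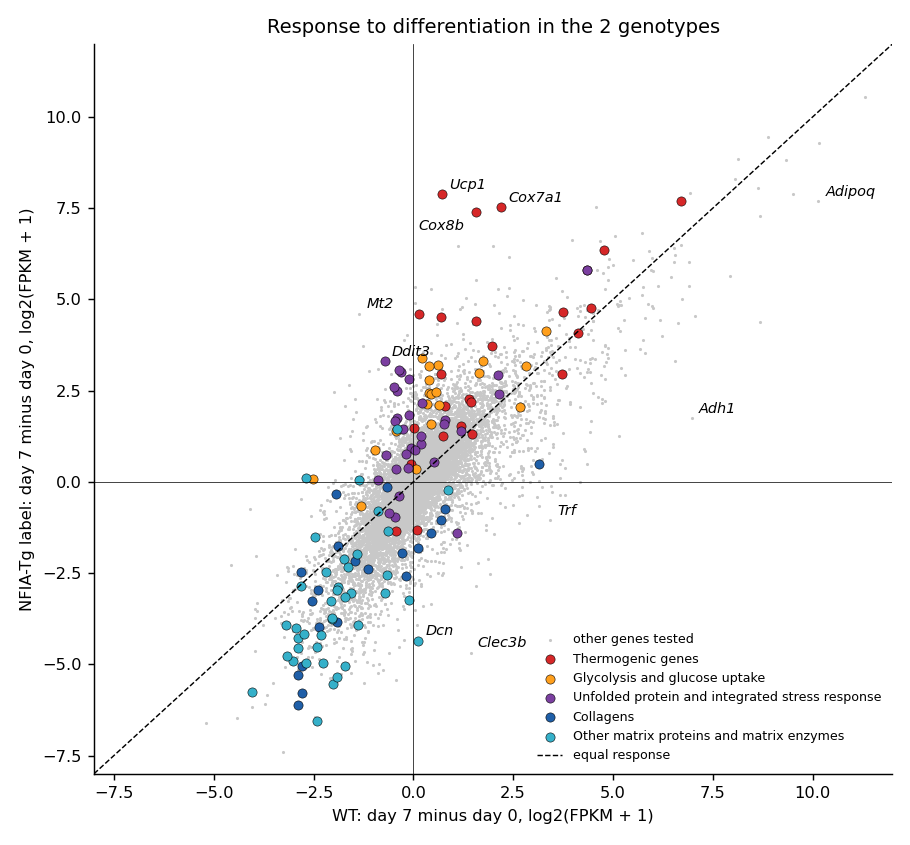
Change from day 0 to day 7 on the log2(FPKM + 1) scale in WT (horizontal axis) and NFIA-Tg (vertical axis), 1 point per tested gene, with 5 gene lists in colour and the dashed line marking an equal response. Ucp1, Cox8b and Cox7a1 sit far above the line and Clec3b, Dcn, Trf and Adh1 far below it, and most collagens and matrix genes lie below it.

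Ucp1, the mitochondrial uncoupling protein of brown fat, had the largest positive interaction. In WT it stood at 0, 0.0553 and 0 FPKM at day 0 and 0.872, 0.738 and 0.414 FPKM at day 7. In NFIA-Tg it stood at 0, 0.0225 and 0.0425 FPKM at day 0 and 208, 248 and 268 FPKM at day 7. The genotypes overlapped before induction and lay far apart after it (log2 interaction 7.17 ± 0.15, adjusted p = 4.75e-12). Ucp1 passed the filter on low values only through NFIA-Tg at day 7, so it had to differ.

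Cox8b and Cox7a1, subunits of cytochrome c oxidase found in brown fat and muscle, followed the same pattern. Cox8b averaged 0.0750 and 0.0660 FPKM at day 0 in WT and NFIA-Tg, and stood at 3.51, 3.09 and 0.751 FPKM in WT, against 186, 173 and 175 FPKM in NFIA-Tg at day 7 (log2 interaction 5.82 ± 0.36, adjusted p = 2.31e-08). Like Ucp1, Cox8b passed the filter on low values only through NFIA-Tg at day 7, so it had to differ. For Cox7a1 the day 7 values were 15.1, 8.80 and 4.96 FPKM in WT, against 433, 428 and 428 FPKM in NFIA-Tg (log2 interaction 5.35 ± 0.38, adjusted p = 6.75e-08). WT day 7 replicate 3 was the lowest WT library at day 7 for Ucp1, Cox8b and Cox7a1, and the 3 WT libraries spread widely there, while the NFIA-Tg libraries lay close together.

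Mt2, a metallothionein that binds zinc and copper, turned from the lower to the higher genotype. It stood at 224, 192 and 243 FPKM in WT, against 69.1, 48.9 and 49.9 FPKM in NFIA-Tg at day 0. At day 7 it stood at 100.55, 91.8 and 65.4 FPKM in WT, against 1309, 1396 and 1404 FPKM in NFIA-Tg. It fell in WT and rose in NFIA-Tg (log2 interaction 5.97 ± 0.22, adjusted p = 2.91e-10). Its neighbour Mt1 averaged 217 FPKM at day 0 and 186 FPKM at day 7 in WT, and 90.2 and 1346 FPKM in NFIA-Tg (log2 interaction 4.13 ± 0.18, adjusted p = 1.15e-09).

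The other 4 leading genes encode secreted or cytoskeletal proteins and rose in NFIA-Tg. Pla2g2e, a secreted phospholipase, averaged 0.625 FPKM at day 0 and 64.0 FPKM at day 7 in NFIA-Tg, against 0.776 and 0.819 FPKM in WT (log2 interaction 5.29 ± 0.14, adjusted p = 2.65e-11). Car6, a secreted carbonic anhydrase, fell in WT and rose in NFIA-Tg, to 76.1, 65.9 and 73.5 FPKM (log2 interaction 5.004 ± 0.15, adjusted p = 6.12e-11). Ghrh, the growth hormone-releasing hormone of the hypothalamus, was listed at 0 in all 6 day 0 libraries and 2 of 3 WT day 7 libraries, and stood at 29.0, 29.8 and 28.4 FPKM in NFIA-Tg at day 7. Pla2g2e and Ghrh reached 1 FPKM only in NFIA-Tg at day 7. They passed the filter on low values through that group alone and had to differ. Coro6, an actin-binding coronin, rose in both genotypes, from 0.797 to 6.28 FPKM in WT and from 0.698 to 148 FPKM in NFIA-Tg (log2 interaction 4.45 ± 0.17, adjusted p = 3.19e-10).

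Clec3b, which encodes the plasminogen-binding protein tetranectin, had the largest negative interaction. It stood at 3.97, 8.07 and 7.22 FPKM in WT, against 42.2, 63.8 and 47.3 FPKM in NFIA-Tg at day 0. At day 7 it stood at 17.4, 17.3 and 20.7 FPKM in WT, against 0.874, 1.26 and 0.902 FPKM in NFIA-Tg. It rose in WT and fell in NFIA-Tg, and the order of the genotypes changed without overlap (log2 interaction −6.11 ± 0.28, adjusted p = 1.7e-09).

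Adh1, an alcohol dehydrogenase that oxidises retinol, rose in both genotypes but from and to different levels. In WT it went from 0.769, 1.33 and 1.01 FPKM to 274, 255 and 232 FPKM. In NFIA-Tg it went from 9.46, 17.2 and 12.8 FPKM to 42.7, 50.4 and 42.7 FPKM, higher than WT at first and lower at the end (log2 interaction −5.23 ± 0.23, adjusted p = 1.13e-09). Sned1, an extracellular matrix protein, was at 397 FPKM in NFIA-Tg and 119.8 FPKM in WT at day 0, and at 8.35 and 88.8 FPKM at day 7 (log2 interaction −4.99 ± 0.11, adjusted p = 9.89e-12).

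Dcn, the matrix proteoglycan decorin, showed a loss in NFIA-Tg against no called change in WT. WT libraries held 31.9, 48.4 and 41.1 FPKM at day 0 and 44.1, 44.9 and 42.0 FPKM at day 7. NFIA-Tg libraries held 35.5, 56.0 and 38.6 FPKM at day 0 and 1.24, 1.15 and 1.02 FPKM at day 7, overlapping WT at day 0 and far below it at day 7 (log2 interaction −4.48 ± 0.22, adjusted p = 3.01e-09). Trf, the iron carrier transferrin, rose in WT to 195, 204 and 205 FPKM and fell in NFIA-Tg to 2.55, 2.21 and 3.20 FPKM (log2 interaction −4.47 ± 0.11, adjusted p = 1.49e-11).

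Scara5, a ferritin receptor, rose in WT from 5.20 ± 0.412 to 22.6 ± 1.30 FPKM and fell in NFIA-Tg from 36.3 ± 2.40 to 5.51 ± 0.523 FPKM (log2 interaction −4.45 ± 0.10, adjusted p = 1.31e-11). Apcdd1, a membrane inhibitor of Wnt signalling, did the same, from 10.0 to 31.7 FPKM in WT and from 29.2 to 3.22 FPKM in NFIA-Tg (log2 interaction −4.41 ± 0.08, adjusted p = 2.96e-12). Lrrc17, a secreted leucine-rich repeat protein, fell in both and further in NFIA-Tg, from 27.4 to 15.7 FPKM in WT and from 108 to 2.08 FPKM in NFIA-Tg (log2 interaction −4.40 ± 0.16, adjusted p = 2.78e-10).

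**Figure D2:**
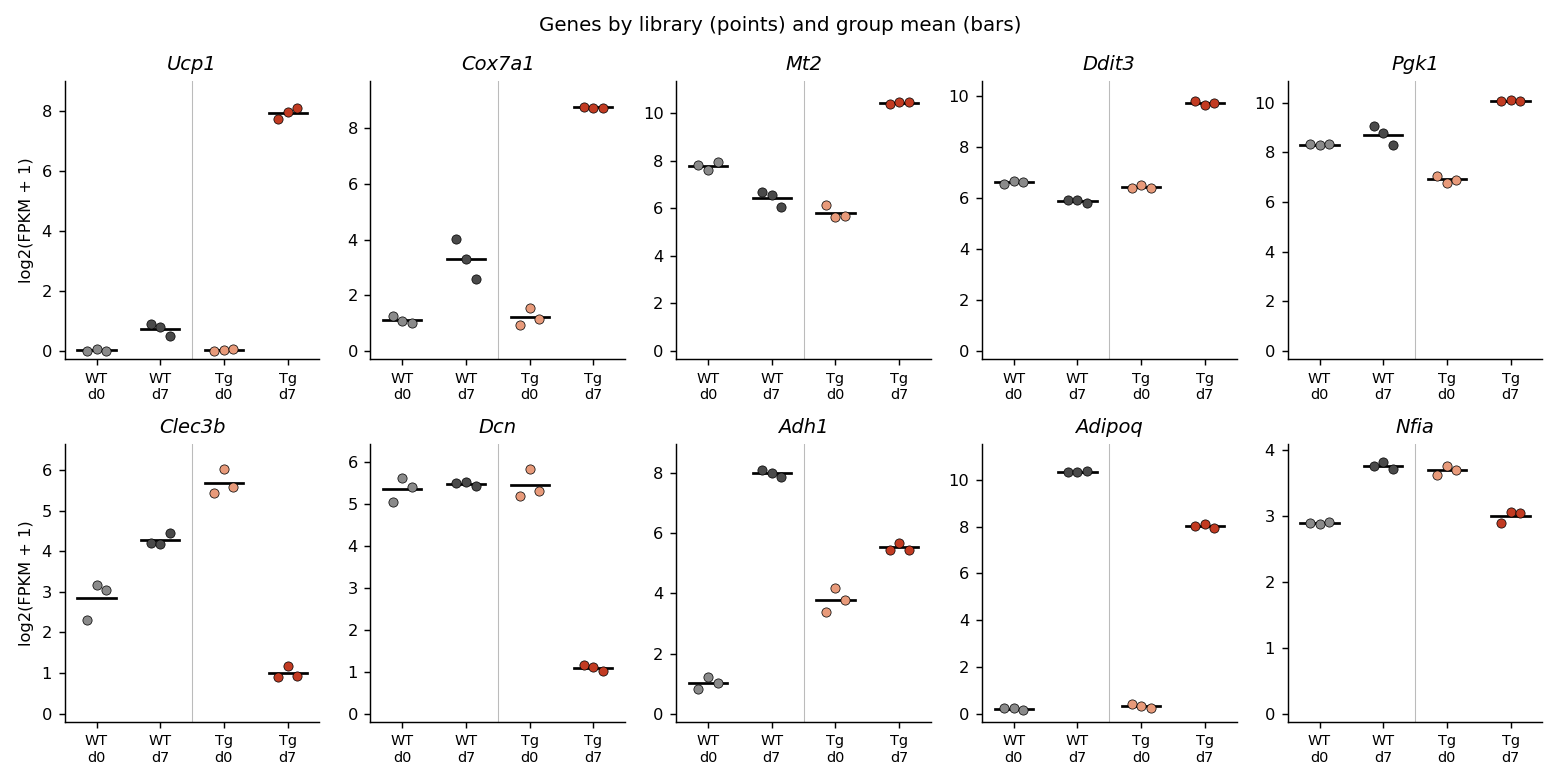
Values on the log2(FPKM + 1) scale for 10 named genes, 1 point per library and a bar at each group mean, with WT in grey and black and NFIA-Tg (labelled Tg) in orange and red at day 0 (d0) and day 7 (d7). Ucp1 and Cox7a1 rise steeply in NFIA-Tg, Clec3b rises in WT and falls in NFIA-Tg, and the order of the genotypes for Nfia is turned round between the days.

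The genes Stbd1 and Cdsn stood out among those that moved in opposite directions with a higher interaction. Stbd1, a glycogen-binding protein, averaged 20.3 FPKM at day 0 and 4.40 FPKM at day 7 in WT, and 13.3 and 78.4 FPKM in NFIA-Tg (log2 interaction 4.45 ± 0.09, adjusted p = 5.58e-12). Cdsn, the skin adhesion protein corneodesmosin, averaged 4.59 FPKM at day 0 and 0.829 FPKM at day 7 in WT, and 6.95 and 48.9 FPKM in NFIA-Tg (log2 interaction 4.27 ± 0.16, adjusted p = 3.42e-10). Both fell in WT and rose in NFIA-Tg.

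Most regulators of adipogenesis had a lower interaction, and 14 of 21 were called higher in NFIA-Tg at day 0, against 28.1% of all genes. In this list, 3 of the 21 tested members had a higher interaction and 16 a lower one (median −0.51), against 29.5% and 42.6% of all genes. Cebpa, which encodes C/EBPα, stood at 7.20, 7.20 and 7.91 FPKM in WT, against 32.7, 39.2 and 40.1 FPKM in NFIA-Tg at day 0. At day 7 it stood at 173, 147 and 165 and 72.1, 74.5 and 66.1 FPKM, so that the order of the genotypes had turned (log2 interaction −3.36 ± 0.11, adjusted p = 1.43e-10). Pparg averaged 3.69 ± 0.0194 FPKM in WT and 15.2 ± 1.23 FPKM in NFIA-Tg at day 0, and 70.7 ± 1.56 and 72.5 ± 1.19 FPKM at day 7 (log2 interaction −1.75 ± 0.07, adjusted p = 3.79e-10). No genotype difference was called at day 7 (adjusted p = 0.504). Zfp423, a regulator of precursor commitment, averaged 0.322 FPKM at day 0 and 7.23 FPKM at day 7 in WT, and 4.81 and 3.44 FPKM in NFIA-Tg (log2 interaction −3.03 ± 0.08, adjusted p = 2.93e-11). The members with a higher interaction were Cebpb (0.82), an early factor of the cascade, Klf9 (0.76) and Klf15 (0.40), the latter a glucocorticoid target.

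Most products of the mature adipocyte rose in both genotypes. In the list, 7 of the 25 tested members had a higher interaction and 17 a lower one (median −0.57), and the counts were 2 and 13 in a voom fit to reads recovered from the FPKM and 4 and 15 with a pseudocount of 0.1. Their FPKM summed to 32084 to 36429.8 in WT and 32658 to 36621 in NFIA-Tg at day 7, against 209 to 244 and 685 to 769 at day 0, so adipocyte products were abundant at day 7 and low at day 0 in both genotypes. Adipoq, the hormone adiponectin, stood at 1284, 1275 and 1325 FPKM in WT, against 259, 276 and 240.4 FPKM in NFIA-Tg at day 7, having been under 1 FPKM in all 6 libraries at day 0 (log2 interaction −2.44 ± 0.08, adjusted p = 1.1e-10). Fabp4, a fatty acid carrier and the most abundant member, reached 22169 ± 2243 FPKM in WT and 25679 ± 1814 FPKM in NFIA-Tg, with no called difference at day 7 (adjusted p = 0.19). At day 0 it averaged 7.76 and 16.6 FPKM, and its interaction (log2 interaction −0.78 ± 0.21, adjusted p = 0.00465) turned sign on a square-root scale (10.1, adjusted p = 0.0612). Plin4, which coats lipid droplets, averaged 0.593 FPKM at day 0 and 149 FPKM at day 7 in WT, and 10.2 and 111 FPKM in NFIA-Tg (log2 interaction −3.24 ± 0.10, adjusted p = 6.23e-11). Rbp4, a retinol carrier, was among those with a higher interaction, at 50.0 FPKM in WT and 203 FPKM in NFIA-Tg at day 7 (log2 interaction 1.67 ± 0.22, adjusted p = 1.91e-05).

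Among genes of fatty acid and triglyceride synthesis, 7 of the 23 tested members had a higher interaction and 13 a lower one (median −0.34), a share of higher ones close to the 29.5% over all genes. Summed FPKM at day 7 were 7740.1 to 9414 in WT and 13099.8 to 16380.0 in NFIA-Tg. Fasn, fatty acid synthase, stood at 691, 741 and 659 FPKM in WT, against 86.9, 94.1 and 93.4 FPKM in NFIA-Tg at day 7, from 31.4 and 34.7 FPKM on average at day 0 (log2 interaction −3.06 ± 0.08, adjusted p = 2e-11). Acly, which makes cytosolic acetyl-CoA, rose in WT to 411 ± 35.4 FPKM and was at 89.4 ± 4.66 FPKM in NFIA-Tg, where its rise was not called (log2 interaction −2.42 ± 0.09, adjusted p = 3.5e-10). Acaca, acetyl-CoA carboxylase, averaged 127 and 31.6 FPKM at day 7 (log2 interaction −1.87). The most abundant member, Scd1, the stearoyl-CoA desaturase, went the other way and averaged 3605 FPKM in WT and 11483 FPKM in NFIA-Tg at day 7 (log2 interaction 0.99), and Mogat1, Acsl4, Thrsp, Acsl3, Elovl5 and Scd2 also had higher interactions.

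In the list of cholesterol synthesis and uptake, 3 of the 23 tested members had a higher interaction and 17 a lower one (median −0.83). Dhcr7, the last reductase of the pathway, averaged 6.75 FPKM at day 0 and 58.6 FPKM at day 7 in WT, and 8.93 and 12.5 FPKM in NFIA-Tg (log2 interaction −2.50 ± 0.07, adjusted p = 6.44e-11). Mvk, mevalonate kinase, rose in WT and fell in NFIA-Tg, from 15.3 to 17.2 FPKM in WT and from 20.6 to 4.75 FPKM in NFIA-Tg (log2 interaction −2.07 ± 0.08, adjusted p = 3.54e-10). Sqle, Lss and Ebp were the members with a higher one.

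Several thermogenic genes were high in NFIA-Tg at day 7 alone. Of the 34 listed, 25 passed the filter on low values, and 20 of the 25 tested members had a higher interaction and 3 a lower one (median 0.97). Of these, 9 passed only through 1 group, 7 of them, Ucp1, Cidea, Ppargc1a and Cox8b included, through NFIA-Tg at day 7, so that these 7 had to differ. Among the other 16, 13 had a higher and 1 a lower interaction, and with no filter 6 members in all had a lower one. The list was chosen with Ucp1, Cox8b and Cox7a1 known to lead, so its count is a description. Cidea, a lipid droplet protein of brown fat, was at 0.308, 0.120 and 0.0781 FPKM in WT, against 23.3, 23.3 and 23.9 FPKM in NFIA-Tg at day 7 and under 1 FPKM in all libraries at day 0 (log2 interaction 4.45 ± 0.10, adjusted p = 1.31e-11). Ppargc1a, the coactivator that drives mitochondrial gene expression, was at 0.501, 0.687 and 0.655 FPKM in WT, against 21.0, 24.8 and 27.5 FPKM in NFIA-Tg at day 7 (log2 interaction 3.84 ± 0.12, adjusted p = 7.44e-11). In the voom fit the thermogenic list gave 12 higher and 4 lower, and the interaction of Ppargc1a was 1.67 there and not called (adjusted p = 0.12).

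Within the thermogenic list the response was uneven. Ppara, a receptor for fatty acids, averaged 2.27 FPKM in WT and 27.3 FPKM in NFIA-Tg at day 7 (log2 interaction 2.84 ± 0.10, adjusted p = 1.99e-10), and Fgf21, a secreted hormone, 31.3 and 146 FPKM (log2 interaction 1.48 ± 0.08, adjusted p = 1.08e-08). Prdm16, a transcriptional regulator of brown and beige fat, was low throughout, at 0.664 and 1.87 FPKM at day 7 (log2 interaction 0.56 ± 0.08, adjusted p = 4.82e-05). Ppargc1b and Esrra had no called interaction. Gk, glycerol kinase, Tmem26 and Ckmt1 had a lower one. Tmem26 and Ckmt1 passed the filter on low values only through NFIA-Tg at day 0, so these 2 had to be lower.

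The respiratory chain and the citric acid cycle rose in both genotypes and, by smaller amounts than the thermogenic genes, further in NFIA-Tg. All 74 tested members of oxidative phosphorylation rose in WT and in NFIA-Tg, and 47 had a higher and 4 a lower interaction (median 0.33). Scaled to an equal total per library (TPM), the counts were 43 and 7. Uqcrc2, of complex III, stood at 194, 192 and 189 FPKM in WT, against 373, 359 and 385 FPKM in NFIA-Tg at day 7, and at 32.7 and 35.4 FPKM on average before (log2 interaction 0.84 ± 0.05, adjusted p = 3e-08). Ndufs8, of complex I, averaged 25.4 FPKM at day 0 and 78.0 FPKM at day 7 in WT, and 26.1 and 140.4 FPKM in NFIA-Tg (log2 interaction 0.80 ± 0.06, adjusted p = 2.04e-07). The members with a lower interaction were Ndufa4, Uqcr11, Atp5g1 and Atp5g3. In the citric acid cycle, 15 of the 19 tested members had a higher interaction and 3 a lower one (median 0.49). Sucla2, of succinyl-CoA synthetase, averaged 27.0 FPKM at day 0 and 91.3 FPKM at day 7 in WT, and 32.4 and 218 FPKM in NFIA-Tg (log2 interaction 1.00 ± 0.06, adjusted p = 1.25e-08), while Pcx, pyruvate carboxylase, averaged 10.1 FPKM at day 0 and 617 FPKM at day 7 in WT, and 14.1 and 335 FPKM in NFIA-Tg (log2 interaction −1.32 ± 0.07, adjusted p = 5.13e-09).

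Among genes of fatty acid oxidation, 7 of the 23 tested members had a higher interaction and 10 a lower one (median −0.02), shares close to the 29.5% and 42.6% over all genes. All 23 rose in WT. Acsl1, which activates long-chain fatty acids, stood at 1000.0, 1027 and 1034 FPKM in WT, against 142, 167 and 148 FPKM in NFIA-Tg at day 7 (log2 interaction −2.53 ± 0.12, adjusted p = 1.52e-09). Cpt1a, the carnitine transferase of the outer membrane, rose in WT and fell in NFIA-Tg, from 21.3 to 25.6 FPKM in WT and from 16.9 to 6.07 FPKM in NFIA-Tg (log2 interaction −1.59 ± 0.07, adjusted p = 1.95e-09). Echs1 and Etfa, which act inside the mitochondrion, had higher interactions (0.87 and 0.82). Among mitochondrial ribosomal proteins, 39 of the 75 tested members had a higher interaction and 7 a lower one (median 0.21), with Mrpl19 (log2 interaction 1.14 ± 0.08, adjusted p = 5.27e-08) and Mrps6 (log2 interaction −1.29 ± 0.08, adjusted p = 2.43e-08) at the 2 ends. With TPM scaling the counts were 33 and 13, so this small shift depends on the scaling.

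Glycolysis had the highest median interaction of the lists with at least 5 tested members. Of its 20 tested members 19 had a higher interaction and 1, Ldhb, a lower one (median 1.82), and 15 of the higher ones were at least 2-fold. At day 0, 16 of the 20 were called lower in NFIA-Tg than in WT, and at day 7 19 were called higher. Over all genes these shares were 34.9% and 29.8%. Pgk1, phosphoglycerate kinase, stood at 320.0, 309 and 319 FPKM in WT, against 133, 107 and 118 FPKM in NFIA-Tg at day 0. By day 7 its values were 534, 439 and 312 FPKM in WT, against 1077, 1084 and 1076 FPKM in NFIA-Tg, with the genotypes apart on both days in opposite orders (log2 interaction 2.77 ± 0.20, adjusted p = 1.06e-07). Pfkp, a phosphofructokinase, reached 129.8 ± 8.92 FPKM in NFIA-Tg and 16.9 ± 2.51 FPKM in WT (log2 interaction 3.16 ± 0.13, adjusted p = 4.94e-10). Gpi1, glucose phosphate isomerase, reached 747 ± 19.6 and 210.3 ± 42.1 FPKM (log2 interaction 2.59 ± 0.16, adjusted p = 2.04e-08). Gapdh, often used as a reference gene, averaged 873 FPKM at day 0 and 1207 FPKM at day 7 in WT, and 505 and 2686 FPKM in NFIA-Tg (log2 interaction 1.96 ± 0.19, adjusted p = 1e-06). Reads of Gapdh and Pgk1 may be shared with processed copies elsewhere in the genome.

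Receptor signalling genes moved both ways. Among insulin signalling genes, 5 of the 24 tested members had a higher interaction and 14 a lower one (median −0.57). Trib3, an inhibitor of AKT that is also a stress gene, averaged 39.2 FPKM at day 0 and 27.6 FPKM at day 7 in WT, and 38.3 and 238 FPKM in NFIA-Tg (log2 interaction 3.10 ± 0.07, adjusted p = 1.38e-11), and Igfbp7, a binding protein of insulin-like growth factors, 375 FPKM at day 0 and 132 FPKM at day 7 in WT, and 586 and 40.3 FPKM in NFIA-Tg (log2 interaction −2.34 ± 0.11, adjusted p = 2.1e-09). Irs1 and Irs2, the insulin receptor substrates, had log2 interactions of −1.58 and −1.32, and that of the receptor Insr was not called. Among adrenergic and cAMP genes, 7 of the 18 tested members had a higher interaction and 10 a lower one (median −0.49). Of these 18, Adrb3, Adra1a, Adra2a and Pde3a each passed the filter on low values only through 1 group. The other 14 held 5 with a higher and 8 with a lower interaction, against 29.5% and 42.6% of all genes. Adrb3, the β3-adrenergic receptor of fat, stood at 9.07, 10.2 and 8.61 FPKM in WT, against 0.688, 0.773 and 0.768 FPKM in NFIA-Tg at day 7, where its change from day 0 was not called (log2 interaction −3.13 ± 0.10, adjusted p = 9.24e-11). Adrb3 passed the filter on low values only through WT at day 7, so it had to differ. Adcy6, an adenylyl cyclase, averaged 33.4 FPKM at day 0 and 74.2 FPKM at day 7 in WT, and 62.5 and 53.8 FPKM in NFIA-Tg (log2 interaction −1.34 ± 0.05, adjusted p = 2.1e-10).

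**Figure D3:**
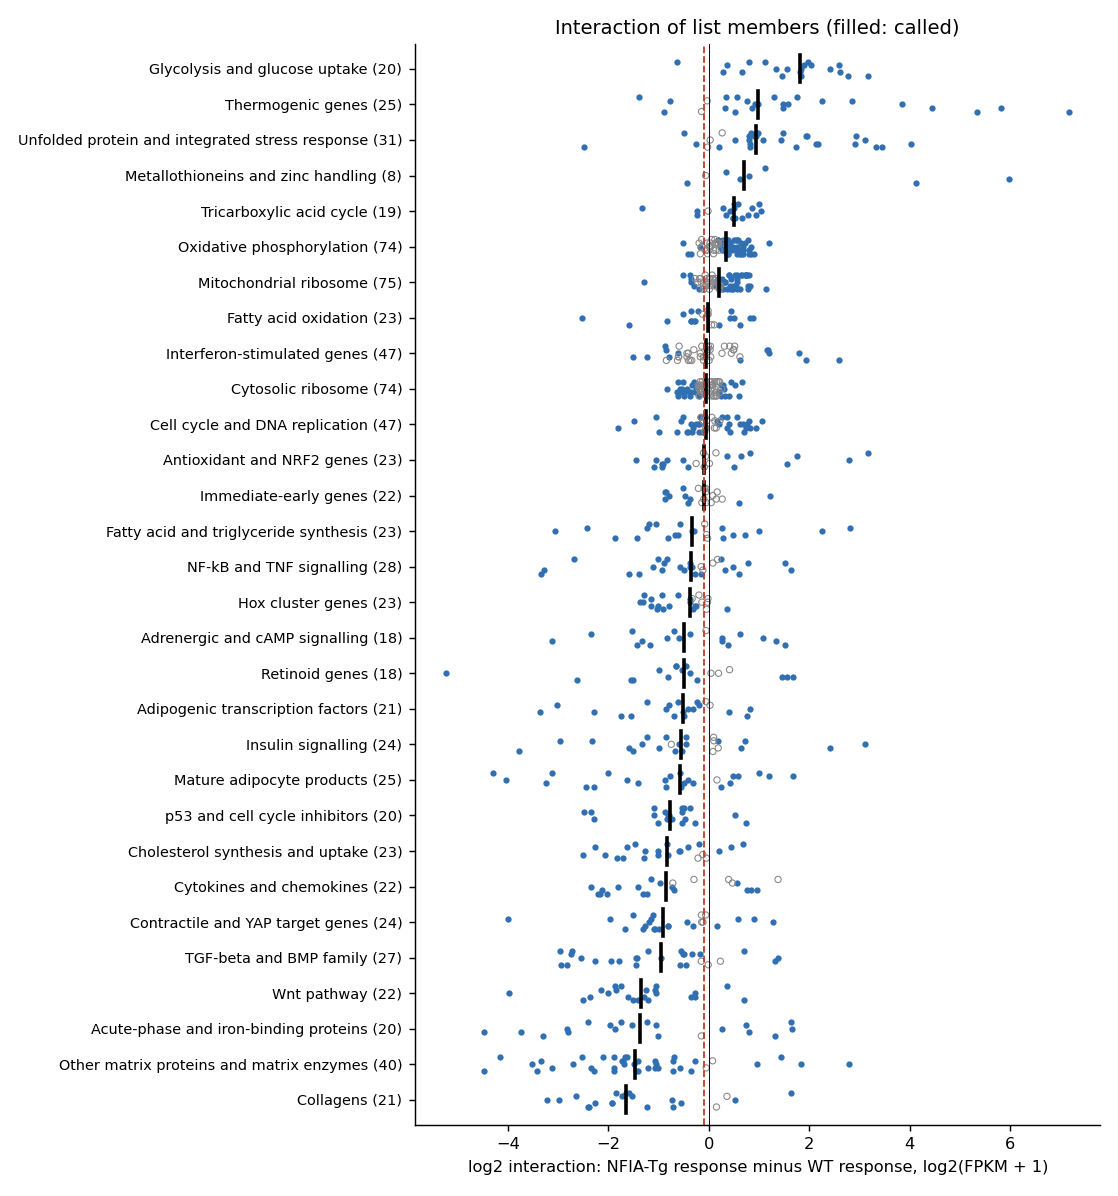
Log2 interaction of each tested member of the 30 programme lists with at least 5 of them, with the number tested in parentheses, filled points for called members, black bars at list medians and a red dashed line at the median of all genes (−0.11). Glycolysis, thermogenic and stress response genes lie mostly to the right and collagens, other matrix genes and acute-phase genes to the left.

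Most matrix genes fell in both genotypes and had a lower interaction. Of 21 collagens 16 fell in WT and 20 in NFIA-Tg, and of 40 other matrix genes 37 fell in each. In either direction, differentiation was called in 81.6% of all genes in WT and 87.2% in NFIA-Tg. Among collagens, 2 of the 21 tested members had a higher interaction and 17 a lower one (median −1.65), and among other matrix proteins and enzymes, 4 of the 40 tested members had a higher interaction and 34 a lower one (median −1.47). Summed collagen FPKM were 13219 to 13955 in WT and 12464 to 13026 in NFIA-Tg at day 0, and 3568 to 3739.9 and 927 to 1134 at day 7. Col3a1, a fibrillar collagen, stood at 3949, 3725 and 4117 FPKM in WT, against 4826, 4529.8 and 4508 FPKM in NFIA-Tg at day 0. By day 7 it stood at 501, 543 and 555 FPKM in WT, against 58.5, 75.4 and 65.0 FPKM in NFIA-Tg (log2 interaction −3.23 ± 0.12, adjusted p = 2.39e-10). Col6a2, of the beaded collagen VI, averaged 327 FPKM at day 0 and 287 FPKM at day 7 in WT, and 406 and 67.3 FPKM in NFIA-Tg (log2 interaction −2.39 ± 0.09, adjusted p = 3.81e-10). Fbln1, fibulin-1, averaged 248 FPKM at day 0 and 46.0 FPKM at day 7 in WT, and 546 and 4.79 FPKM in NFIA-Tg (log2 interaction −4.16 ± 0.08, adjusted p = 4.2e-12), and Adamts2, which trims procollagen, 91.9 FPKM at day 0 and 27.5 FPKM at day 7 in WT, and 188 and 4.71 FPKM in NFIA-Tg (log2 interaction −3.35 ± 0.09, adjusted p = 2.93e-11). Mmp11, Plod1, P4ha1 and Loxl2, all matrix-modifying enzymes, had higher interactions. In bulk samples such as these, fewer cells of a type and less RNA per cell cannot be told apart.

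Markers of precursors and fibroblasts moved with the matrix genes: 1 of the 20 tested members had a higher interaction and 18 a lower one (median −1.36), with summed FPKM of 1096 to 1307 in WT and 300.0 to 399 in NFIA-Tg at day 7. Thy1, a surface marker of stromal cells, stood at 60.3, 64.1 and 73.8 FPKM in WT, against 11.4, 12.3 and 11.5 FPKM in NFIA-Tg at day 7 (log2 interaction −2.71 ± 0.09, adjusted p = 8.63e-11), and Pdgfra, the receptor that marks fat precursors, averaged 87.1 FPKM at day 0 and 28.6 FPKM at day 7 in WT, and 94.9 and 3.66 FPKM in NFIA-Tg (log2 interaction −2.80 ± 0.13, adjusted p = 1.34e-09). Among contractile and YAP target genes, 4 of the 24 tested members had a higher interaction and 16 a lower one (median −0.91), and on a square-root scale 7 and 10. Flna, the actin crosslinker filamin A, averaged 305 FPKM at day 0 and 117 FPKM at day 7 in WT, and 213 and 32.9 FPKM in NFIA-Tg (log2 interaction −1.28 ± 0.07, adjusted p = 1.11e-08), while Tagln2 fell in WT with no called change in NFIA-Tg (log2 interaction 1.27 ± 0.07, adjusted p = 4.32e-09).

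Wnt and TGF-β family genes mostly fell further in NFIA-Tg, and 14 of 22 and 16 of 27 were called higher there at day 0, against 28.1% of all genes. Among Wnt pathway genes, 2 of the 22 tested members had a higher interaction and 20 a lower one (median −1.36). Of these, 6 passed the filter only through 1 group at day 0, and the other 16 all had a lower interaction. Sfrp1, a secreted Wnt inhibitor, stood at 388, 361 and 418 FPKM in WT, against 741, 711 and 716 FPKM in NFIA-Tg at day 0. By day 7 Sfrp1 was down to 59.5, 69.4 and 82.0 FPKM in WT, against 6.43, 8.26 and 7.42 FPKM in NFIA-Tg (log2 interaction −3.98 ± 0.15, adjusted p = 2.8e-10), and the order of the genotypes had turned. The Wnt receptor Fzd1 averaged 54.9 FPKM at day 0 and 17.4 FPKM at day 7 in WT, and 114 and 9.33 FPKM in NFIA-Tg (log2 interaction −1.87 ± 0.08, adjusted p = 9.14e-10). Among TGF-β and BMP genes, 3 of the 27 tested members had a higher interaction and 21 a lower one (median −0.96). Fst, the activin antagonist follistatin, averaged 33.4 FPKM at day 0 and 11.3 FPKM at day 7 in WT, and 97.9 and 4.36 FPKM in NFIA-Tg (log2 interaction −2.72 ± 0.11, adjusted p = 5.05e-10), and the BMP ligand Gdf5 0.164 FPKM at day 0 and 4.23 FPKM at day 7 in WT, and 0.691 and 0.131 FPKM in NFIA-Tg (log2 interaction −2.75 ± 0.10, adjusted p = 3.23e-10). Gdf5 passed the filter on low values only through WT at day 7 and had to differ.

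In the retinoid list, 3 of the 18 tested members had a higher interaction and 12 a lower one (median −0.49). Beside Adh1, Aldh1a3, which makes retinoic acid, averaged 2.09 FPKM at day 0 and 0.902 FPKM at day 7 in WT, and 18.1 and 0.889 FPKM in NFIA-Tg (log2 interaction −2.63 ± 0.12, adjusted p = 1.03e-09). Among Hox genes, 1 of the 23 tested members had a higher interaction and 16 a lower one (median −0.39), led by Hoxc5 (log2 interaction −1.37 ± 0.08, adjusted p = 1.28e-08) and Hoxc10 (log2 interaction −1.15 ± 0.07, adjusted p = 2.44e-08). At day 7, 21 of the 23 tested Hox genes were called lower in NFIA-Tg, against 51.1% of all genes.

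Among cytokines and chemokines, 4 of the 22 tested members had a higher interaction and 13 a lower one (median −0.85). On a square-root scale the counts were 5 and 9, and 7 were higher without NFIA-Tg day 0 replicate 1. Ccl2, which recruits monocytes, stood at 461, 495 and 502 FPKM in WT, against 488, 343 and 386 FPKM in NFIA-Tg at day 0, where the ranges overlapped. By day 7 Ccl2 had dropped to 29.3, 35.8 and 48.9 FPKM in WT, against 7.11, 6.87 and 4.44 FPKM in NFIA-Tg (log2 interaction −2.17 ± 0.26, adjusted p = 1.03e-05). On a square-root scale its interaction was not called. Csf1, a macrophage growth factor, averaged 208 FPKM at day 0 and 63.9 FPKM at day 7 in WT, and 327 and 23.9 FPKM in NFIA-Tg (log2 interaction −2.03 ± 0.09, adjusted p = 9.13e-10). Cxcl12, a chemokine of stromal cells, averaged 353 FPKM at day 0 and 63.3 FPKM at day 7 in WT, and 172 and 5.81 FPKM in NFIA-Tg (log2 interaction −2.21 ± 0.11, adjusted p = 3.07e-09), and on the square-root scale its sign turned (0.14, adjusted p = 0.841).

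Of genes of NF-κB and TNF signalling, 7 of the 28 tested members had a higher interaction and 17 a lower one (median −0.36). Vcam1, an adhesion molecule, averaged 106 FPKM at day 0 and 24.1 FPKM at day 7 in WT, and 207 and 3.97 FPKM in NFIA-Tg (log2 interaction −3.29 ± 0.10, adjusted p = 6.23e-11), and Il1r1, the interleukin-1 receptor, 61.7 FPKM at day 0 and 25.6 FPKM at day 7 in WT, and 108 and 6.15 FPKM in NFIA-Tg (log2 interaction −2.68 ± 0.10, adjusted p = 2.39e-10). Ptgs2 and Nfkbiz had higher interactions of 1.64 and 1.52. Among acute-phase and iron-binding proteins, 6 of the 20 tested members had a higher interaction and 13 a lower one (median −1.38). Beside Trf, Orm2 averaged 0.0173 FPKM at day 0 and 5.67 FPKM at day 7 in WT, and 0.0714 and 0.321 FPKM in NFIA-Tg (log2 interaction −2.41 ± 0.10, adjusted p = 5.39e-10), with reads that may be shared with Orm1. Orm2 passed the filter on low values only through WT at day 7 and had to differ. Haptoglobin, Hp, averaged 21.5 FPKM at day 0 and 239 FPKM at day 7 in WT, and 71.9 and 58.9 FPKM in NFIA-Tg (log2 interaction −3.74 ± 0.29, adjusted p = 1.46e-07), and Lcn2, an iron-trapping protein, went the other way, from 12.3 to 26.6 FPKM in WT and from 25.6 to 172 FPKM in NFIA-Tg (log2 interaction 1.65 ± 0.40, adjusted p = 0.00248).

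Among interferon-stimulated genes, 7 of the 47 tested members had a higher interaction and 6 a lower one (median −0.05), a split that TPM scaling turned to 7 and 8 and the voom fit to 12 and 5. Without NFIA-Tg day 0 replicate 1, 14 were higher, and without NFIA-Tg day 0 replicate 3, 11 were lower. In the same list 41 of the 47 were called lower in NFIA-Tg than in WT at day 0 and 38 at day 7, against 34.9% and 51.1% of all genes called lower on those days. Their sums were 3083 to 4244 FPKM in WT and 1409.8 to 2723 FPKM in NFIA-Tg at day 0, and 3770.2 to 4073 and 1781 to 2289.5 FPKM at day 7. Isg20, an exonuclease, was an exception, averaging 15.2 FPKM at day 0 and 8.63 FPKM at day 7 in WT, and 10.4 and 39.1 FPKM in NFIA-Tg (log2 interaction 2.60 ± 0.20, adjusted p = 1.5e-07). Psmb8, a subunit of the immunoproteasome, averaged 54.3 FPKM at day 0 and 48.4 FPKM at day 7 in WT, and 25.0 and 50.1 FPKM in NFIA-Tg (log2 interaction 1.15 ± 0.20, adjusted p = 0.000225).

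Genes of the unfolded protein and integrated stress responses, which answer misfolded protein and amino acid shortage, rose in NFIA-Tg. In the list, 25 of the 31 tested members had a higher interaction and 3 a lower one (median 0.95). At day 7, 28 of 31 were called higher in NFIA-Tg than in WT, against 29.8% of all genes. Ddit3, which encodes the stress factor CHOP, stood at 93.7, 100.4 and 97.3 FPKM in WT, against 82.9, 89.1 and 82.4 FPKM in NFIA-Tg at day 0. By day 7 Ddit3 was at 60.4, 60.0 and 55.2 FPKM in WT, against 885, 809 and 838 FPKM in NFIA-Tg, so it fell in WT and rose in NFIA-Tg (log2 interaction 4.02 ± 0.07, adjusted p = 2.89e-12). Hspa5, the chief chaperone of the endoplasmic reticulum, stood at 297, 301 and 313 FPKM in WT, against 2994, 2677 and 2978 FPKM in NFIA-Tg at day 7, against 375 and 355 FPKM on average at day 0 (log2 interaction 3.32 ± 0.08, adjusted p = 1.31e-11). Atf4, the translationally controlled factor upstream of Ddit3, averaged 190.2 FPKM at day 0 and 168 FPKM at day 7 in WT, and 262 and 446 FPKM in NFIA-Tg (log2 interaction 0.95 ± 0.06, adjusted p = 1.41e-08). The interactions of Xbp1, Atf3 and Atf5 were not called, and Gdf15, Sesn2 and Slc7a5 had lower ones.

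In the list of metallothioneins and zinc handling, 6 of the 8 tested members had a higher interaction and 1 a lower one (median 0.70), and the zinc sensor Mtf1 had no called interaction. Among antioxidant genes, 8 of the 23 tested members had a higher interaction and 9 a lower one (median −0.09), so the share called was close to the 72.1% over all genes. Hmox1, heme oxygenase, averaged 114 FPKM at day 0 and 75.9 FPKM at day 7 in WT, and 157 and 732 FPKM in NFIA-Tg (log2 interaction 2.78 ± 0.11, adjusted p = 6.2e-10), and Srxn1, sulfiredoxin, 22.4 FPKM at day 0 and 18.9 FPKM at day 7 in WT, and 22.6 and 58.1 FPKM in NFIA-Tg (log2 interaction 1.56 ± 0.08, adjusted p = 4.64e-09). Of immediate-early genes, 2 of the 22 tested members had a higher interaction and 8 a lower one (median −0.10), with Fosl2 averaging 67.4 FPKM at day 0 and 14.0 FPKM at day 7 in WT, and 41.6 and 20.7 FPKM in NFIA-Tg (log2 interaction 1.21 ± 0.07, adjusted p = 1.05e-08) and Dusp6, a phosphatase of ERK, 2.89 FPKM at day 0 and 5.25 FPKM at day 7 in WT, and 4.04 and 3.48 FPKM in NFIA-Tg (log2 interaction −0.85 ± 0.09, adjusted p = 2.71e-06).

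Cell cycle genes were lower in NFIA-Tg on both days and did not share an interaction. In the list, 17 of the 47 tested members had a higher interaction and 18 a lower one (median −0.06), a split that median-of-ratios scaling turned to 20 and 11 and quantile normalization to 22 and 9. Of the 47, 45 were called lower in NFIA-Tg at day 0 and 46 at day 7, against 34.9% and 51.1% of all genes. Rrm2, a ribonucleotide reductase subunit, stood at 149, 157 and 150.4 FPKM in WT, against 43.5, 44.1 and 41.0 FPKM in NFIA-Tg at day 7, after 34.0 and 34.2 FPKM on average at day 0 (log2 interaction −1.81 ± 0.06, adjusted p = 9.46e-11). Mcm2, of the replicative helicase, averaged 47.8 FPKM at day 0 and 76.1 FPKM at day 7 in WT, and 21.3 and 72.2 FPKM in NFIA-Tg (log2 interaction 1.05 ± 0.05, adjusted p = 3.96e-09). Among p53 targets and cell cycle inhibitors, 2 of the 20 tested members had a higher interaction and 18 a lower one (median −0.77). Gdf15, a secreted stress cytokine, averaged 2.23 FPKM at day 0 and 5.85 FPKM at day 7 in WT, and 21.1 and 7.34 FPKM in NFIA-Tg (log2 interaction −2.50 ± 0.14, adjusted p = 1.08e-08), and Phlda3, an AKT inhibitor, 102 FPKM at day 0 and 98.1 FPKM at day 7 in WT, and 203 and 39.4 FPKM in NFIA-Tg (log2 interaction −2.28 ± 0.10, adjusted p = 1.2e-09). Of cytosolic ribosomal proteins, 11 of the 74 tested members had a higher interaction and 22 a lower one (median −0.06), with Rpl5 (log2 interaction 0.40 ± 0.05, adjusted p = 2.3e-05) and Rps19 (log2 interaction −0.52 ± 0.07, adjusted p = 3.11e-05) among the called ones, and median-of-ratios scaling made the split 18 and 16.

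Of 24 macrophage markers 6 passed the filter, and 2 had a higher and 3 a lower interaction. Adgre1, Csf1r, Ptprc and Itgam were among the members that did not pass. Over the list, sums were 13.0 to 14.7 and 17.0 to 20.8 FPKM at day 0 and 13.4 to 14.5 and 12.3 to 12.7 FPKM at day 7 in WT and NFIA-Tg. Cd14, a receptor for bacterial lipid that fibroblasts also express, averaged 2.95 FPKM at day 0 and 0.976 FPKM at day 7 in WT, and 5.43 and 0.416 FPKM in NFIA-Tg (log2 interaction −1.18 ± 0.09, adjusted p = 1.67e-07). Of 16 endothelial markers 5 passed, Cdh5 and Tie1 not among them, with sums of 5.08 to 5.40 and 5.005 to 5.61 FPKM at day 7, and Pecam1 stood at 2.92, 2.695 and 3.33 FPKM in NFIA-Tg at day 7 against 0.133 FPKM in WT (log2 interaction 1.76 ± 0.09, adjusted p = 5.04e-09). Pecam1 passed only through NFIA-Tg at day 7 and had to differ. Of 12 smooth muscle and pericyte markers 9 passed, and 2 of the 9 tested members had a higher interaction and 7 a lower one (median −1.11), with Notch3 averaging 8.66 FPKM at day 0 and 4.33 FPKM at day 7 in WT, and 19.7 and 2.21 FPKM in NFIA-Tg (log2 interaction −1.83 ± 0.09, adjusted p = 2.89e-09).

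Among mesothelial markers, Cldn15 and Krt19 passed the filter, and Cldn15, a claudin, averaged 1.05 FPKM at day 0 and 6.51 FPKM at day 7 in WT, and 18.2 and 3.45 FPKM in NFIA-Tg (log2 interaction −3.99 ± 0.14, adjusted p = 1.68e-10). Ngfr, the nerve growth factor receptor of Schwann cells and some stromal cells, averaged 31.8 FPKM at day 0 and 19.8 FPKM at day 7 in WT, and 13.4 and 0.258 FPKM in NFIA-Tg (log2 interaction −2.82 ± 0.20, adjusted p = 8.15e-08), and 4 of the 5 tested of 10 markers of its list had a lower interaction. In the skeletal muscle list the interaction of Des, desmin, was called narrowly (log2 interaction 0.90 ± 0.35, adjusted p = 0.0348), and in 15 of 25 alternatives it was not. Of 10 cartilage and bone markers 5 passed, and Sox9 averaged 9.97 FPKM at day 0 and 3.93 FPKM at day 7 in WT, and 14.1 and 1.39 FPKM in NFIA-Tg (log2 interaction −1.51 ± 0.07, adjusted p = 2.34e-09), and Elane, of neutrophils, 0.0311 FPKM at day 0 and 1.34 FPKM at day 7 in WT, and 0.0554 and 0.180 FPKM in NFIA-Tg (log2 interaction −1.01 ± 0.12, adjusted p = 6.54e-06). Elane passed the filter only through WT at day 7 and had to differ. No marker of mammary epithelium, lymphocytes or erythroid cells passed the filter, and Trp63, Lck and Klf1, a member of each list, stayed at or under 1.02 FPKM in all 12 libraries. The part of other cell types in the interactions was not tested.

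Read the other way, the interaction is the genotype difference at day 7 minus that at day 0. Of the 6607 genes called on both days, 4195 kept their direction and 2412 (36.5%) changed it. All 2412 had a called interaction, 1548 going from higher to lower in NFIA-Tg and 864 from lower to higher.

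Named genes that turned were ranked within each direction by the smaller of their 2 genotype differences. The first 4 each way were Mt2, Pgk1, Clec3b, Adh1, Lrrc17 and 3 further genes. Some genes outside these turned further than Pgk1, whose log2 differences were −1.40 at day 0 and 1.37 at day 7. For Scara5 they were 2.59 and −1.86. Prelid2, a lipid-transfer protein family member, stood at 9.84, 10.2 and 10.6 FPKM in WT, against 3.05, 1.89 and 2.56 FPKM in NFIA-Tg at day 0. By day 7 Prelid2 was at 3.13, 3.35 and 2.698 FPKM in WT, against 14.9, 14.6 and 17.6 FPKM in NFIA-Tg (log2 interaction 3.73 ± 0.16, adjusted p = 7e-10). The order of the genotypes was opposite on the 2 days, without overlap. Fndc1, a fibronectin-domain protein, averaged 20.9 FPKM at day 0 and 0.264 FPKM at day 7 in WT, and 4.20 and 2.09 FPKM in NFIA-Tg (log2 interaction 3.34 ± 0.19, adjusted p = 1.04e-08). Slit2, a guidance cue that fat also secretes, averaged 23.2 FPKM at day 0 and 9.33 FPKM at day 7 in WT, and 93.0 and 1.07 FPKM in NFIA-Tg (log2 interaction −4.27 ± 0.11, adjusted p = 2.57e-11).

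**Figure D4:**
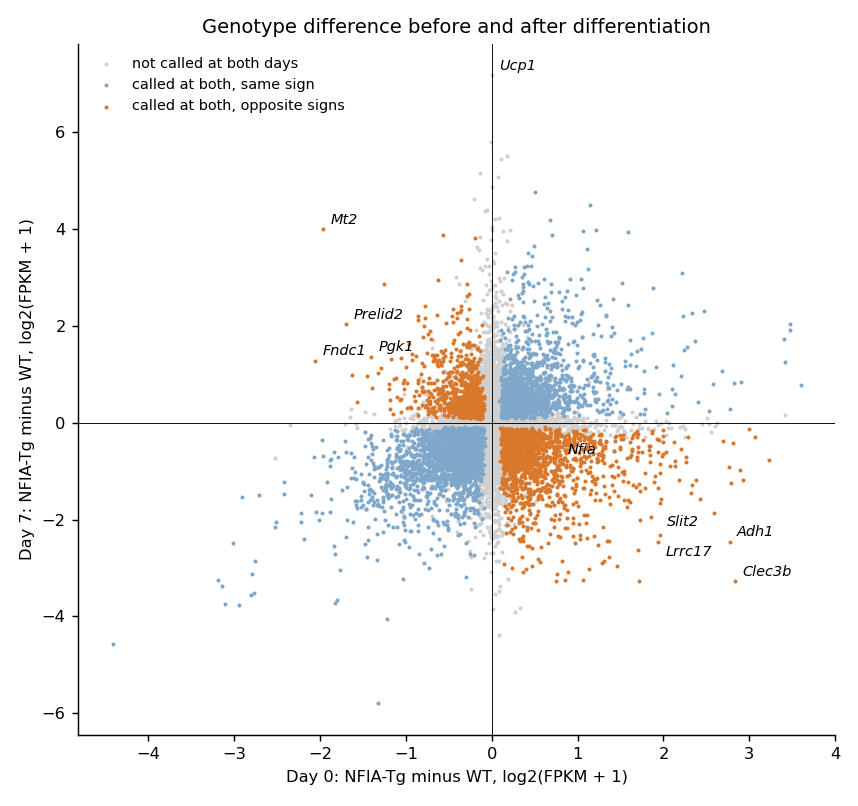
Genotype difference, NFIA-Tg minus WT, on the log2(FPKM + 1) scale at day 0 (horizontal axis) and day 7 (vertical axis), 1 point per tested gene. Orange points, in the upper left and lower right, are the 2412 genes called on both days with opposite signs, blue points the 4195 called with the same sign.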

How the data were processed

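The 12 libraries hold poly(A) RNA of cultured cells, and per the labels' protocols libraries were made with a stranded kit. The authors' deposited files give FPKM per gene, made on build mm9 with STAR 2.7.8a and StringTie 2.1.1 per the submitters' processing notes. Of 24825 genes listed, the 12553 with at least 1 FPKM in at least 3 libraries were fitted on log2(FPKM + 1) with limma 3.58.1 in R 4.3.3 (4 group means, empirical Bayes with trend, two-sided, Benjamini-Hochberg adjustment). The analysis was tested on simulated data. FPKM times gene length gave whole reads within 0.01 of a read, 16772594 to 28625625 per library, used for depth and for 1 alternative. Promoters came from RefSeq tables (GRCm38.p6), matched by symbol for 9629 tested genes.

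Named genes with a mean of at least 5 FPKM in a group are the 8 with the largest interaction each way (groups apart on a day), the 4 each way moving in opposite directions, and the 4 each way whose genotype difference turned round most. Without that minimum, the called genes of each list with the smallest adjusted p were named, whichever their direction. A set chosen as checks was named too. Other genes named were chosen after their values were seen. The members and lists were chosen with earlier results of these data known, as was the 2-fold threshold. Genes with a pattern like another gene are not reported, because the 12 libraries fall into 4 separate groups. Some genes of the lists are not reported here by name.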

Additional observations from a re-analysis of the deposited data

Results flagged for a closer look

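In the following 8 genes the genotype difference had opposite signs before and after differentiation, with a called interaction in limma. Those that went from lower to higher in NFIA-Tg were Mt2 (log2 interaction 5.97), Prelid2 (3.73), Fndc1 (3.34) and Pgk1 (2.77). Those that went from higher to lower were Clec3b (−6.11), Adh1 (−5.23), Lrrc17 (−4.40) and Slit2 (−4.27). In all, 2412 genes turned round in this way, and Nfia was among them.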

How the results depend on the processing

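Of 25 alternative settings, none moved the count of called interactions by over 1.5 times. With 9051 of 12553 genes called, a rise of that size was not possible in most settings, so only a fall could be seen. With quantile normalization, 7899 of the 9051 kept their call and sign. Leaving out each library in turn gave 8569 to 8815 called interactions, 3474 to 3662 higher and 4985 to 5324 lower, and 2106 to 2423 genes that turned round. With the replicate number as a block, limma called 9027 interactions (3717 higher, 5310 lower), and 8926 of the 9051 kept their call and sign. The labels do not say what the replicate numbers mean. Deviations of same-numbered libraries from their group means correlated at −0.11 to 0.16. With so few libraries per group, this cannot tell whether they share a source. Over 99 named results and their alternatives, 2406 values kept direction and call, 20 lost the call, 9 gained it and 5 reversed. Without a filter on low values, 1195 genes were called in WT and not in NFIA-Tg, 2122 in NFIA-Tg and not in WT and 64 in neither, and with a filter at 5 FPKM 25 were called in neither. The interaction of Nfib, not called at 0.12, was −0.68 with a pseudocount of 0.1 and −0.83 with voom on recovered reads (both called lower), −0.16 with 0.5 (not called), and called higher on a square-root scale (0.62), with quantile normalization (0.41) and without NFIA-Tg day 7 replicate 1 (0.25). On a square-root scale that of Fabp4 was 10.1 and that of Cxcl12 0.14, neither called. The share of called interactions that were higher was 35.6% with TPM, 46.6% with median-of-ratios scaling and 52.3% with quantile normalization. A count model on recovered reads was not run, since the deposited unit is FPKM. Low genes are limited by depth, 1 read in a gene of 1 kilobase being worth 0.0349 to 0.0596 FPKM.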

Other observations

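Genes known to be induced when oxygen is low were listed after their values were seen, so their counts are descriptions. Of 20 listed, 19 were tested, and 15 had a higher and 3 a lower interaction (median 1.42). Over all genes the shares were 29.5% and 42.6%. Car9 passed the filter on low values only through NFIA-Tg at day 7 and had to differ. Of the other 18, 14 had a higher and 3 a lower interaction. Ero1l, an oxidase of the endoplasmic reticulum, stood at 63.9, 56.8 and 47.5 FPKM in WT, against 794, 924 and 983 FPKM in NFIA-Tg at day 7, from 31.7, 33.4 and 34.8 and 40.1, 40.2 and 35.9 FPKM at day 0. Its 3 NFIA-Tg values at day 7 lay far above all other libraries. Bnip3, which directs removal of mitochondria, had a log2 interaction of 2.50, Ndufa4l2, which lowers respiration, 3.80, and Vegfa, the growth factor of blood vessels, 1.84. Hif1a, whose protein drives these genes, had one of −0.28. The 3 WT day 7 libraries differed among themselves in the glycolytic genes Pgk1 and Gpi1 and in Ucp1, Cox8b and Cox7a1, replicate 1 being the highest and replicate 3 the lowest each time.

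Replication-dependent histone genes were also chosen after their values were seen. Of 69 listed, 38 were tested, and 29 of these passed the filter on low values only through WT at day 7, so that these had to differ and no count over the list is read. Among the 9 that passed otherwise, Hist1h2bc, a core histone, stood at 17.8, 22.8 and 19.4 FPKM in WT, against 49.2, 58.0 and 51.6 FPKM in NFIA-Tg at day 0. At day 7 the values were 182, 176 and 198 FPKM in WT, against 36.9, 34.8 and 28.4 FPKM in NFIA-Tg (log2 interaction −3.81). Most RNAs of such genes lack a poly(A) tail, though not all do, and the genes share near-identical copies, so their values are uncertain. Of the structural RNAs, Rn45s had a log2 interaction of 3.43 (adjusted p = 0.0339 in limma), Rpph1 one of 3.58 (adjusted p = 0.0236) and Rmrp one of 2.43 that was not called (adjusted p = 0.108). Rpph1 passed the filter on low values only through NFIA-Tg at day 7. Rn45s stood at 92.2, 52.2 and 1296 FPKM in WT, against 3593, 1261 and 750.3 FPKM in NFIA-Tg at day 7. WT day 7 replicate 3 lay within the NFIA-Tg range for Rn45s and Rmrp and just below it for Rpph1, and the replicates of both groups spread widely. The 10 most abundant genes held 6.87 to 7.21% of reads in WT at day 7 and 11.7 to 12.3% in NFIA-Tg. The part of library composition in these results was not tested.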
